A study of Mus musculus with 4 samples.

Results

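Saa1, Saa2, Saa3, Lcn2, Hp, Lbp and Lrg1 encode secreted acute-phase proteins, and the levels of these 7 genes, of 32286 genes counted, were followed in the cell lineages of the bleomycin-injured mouse lung. The genes were chosen by name, and cells were assigned by markers that are none of these genes. Cells with at least 1 unique molecular identifier (UMI, 1 captured RNA molecule) of Ptprc were taken as immune, of Cdh5 as endothelial, of Epcam as epithelial, of Msln as mesothelial, of Higd1b or Myh11 as mural, and of Pdgfra as fibroblast. Cells with markers of several lineages were dropped. The 4 mice were 2 wild-type (WT) mice and 2 Tubb3-/- littermates, 8 to 11 weeks old. Tubb3-/- mice carry 2 copies of a knock-in that puts Cre at the translation start of Tubb3. The allele is constitutive, so Tubb3 is disrupted in all cells and not only in pericytes, and these mice also carry Cre. All 4 mice received 0.8 U/kg bleomycin into the trachea, a drug that injures the alveoli and leads to fibrosis, and lungs were taken on day 14. No untreated lung was analysed here, so every level is one of injured lung.

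The acute-phase response is the change in secreted proteins that follows injury or infection. In the liver, interleukin-6 acts through STAT3, and interleukin-1 and tumor necrosis factor act through NF-kB and C/EBP factors, to raise the transcription of serum amyloids, haptoglobin and other plasma proteins. Some of these genes are also transcribed outside the liver. Saa3 and Lcn2 are known as genes of inflammatory fibroblasts in injured lung, Lcn2 is stored by neutrophils and made by airway and alveolar epithelium, and Lrg1 is induced in venous and capillary endothelium. Acute-phase transcripts in lung cells are often used as readouts of inflammatory signaling in each lineage.

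Saa3, Saa1 and Saa2 lie in a cluster on chromosome 7 of the mouse genome that also holds Saa4 (GRCm38, GENCODE vM21). Saa3 (ENSMUSG00000040026) covers chr7:46711998-46715700 on the minus strand, Saa1 (ENSMUSG00000074115) chr7:46740497-46742980 on the minus strand, and Saa2 (ENSMUSG00000057465) chr7:46751790-46754313 on the plus strand. Lcn2 (ENSMUSG00000026822) lies at chr2:32384633-32388252 on the minus strand and Hp (ENSMUSG00000031722) at chr8:109575128-109579172 on the minus strand. Lbp (ENSMUSG00000016024) lies at chr2:158306493-158332852 on the plus strand and Lrg1 (ENSMUSG00000037095) at chr17:56119678-56122001 on the minus strand. All 7 are protein coding, and no other annotated gene overlaps them.

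Serum amyloid genes are near copies, so whether reads could be shared was checked on the transcripts. The longest transcripts of Saa1 (609 bases) and Saa2 (652 bases) were 87.3% identical and had 51 of the 560 windows of 50 bases of Saa1 in common (9.11%), but none of 90 bases. Saa3 (2200 bases) had no window of 50 or 90 bases in common with Saa1, Saa2 or Saa4. Some short reads of Saa1 and Saa2 therefore cannot be told apart, and counts of these 2 genes are uncertain to that extent, whereas Saa3 counts are not affected by exact copies.

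Upstream sequences are printed for Saa3, on which the results turn, and for Saa1 and Saa2, the near copies in the same cluster. They are from RefSeq (GRCm38.p6), which held 5 of the 7 genes in the table used, without Hp and Lbp. Each is written 5′ to 3′ on the gene's strand and ends before the first exon that GENCODE annotates, and capitals mark the motif matches described after them. For Lcn2 none is printed, since an exon of a longer GENCODE transcript covers most of the stretch.
Saa3, chr7:46715701-46715926, minus strand: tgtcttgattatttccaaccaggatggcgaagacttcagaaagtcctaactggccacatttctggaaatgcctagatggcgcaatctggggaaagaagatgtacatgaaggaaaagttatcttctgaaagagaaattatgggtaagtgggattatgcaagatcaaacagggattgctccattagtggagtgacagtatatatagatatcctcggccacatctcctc
Saa1, chr7:46742981-46743230, minus strand: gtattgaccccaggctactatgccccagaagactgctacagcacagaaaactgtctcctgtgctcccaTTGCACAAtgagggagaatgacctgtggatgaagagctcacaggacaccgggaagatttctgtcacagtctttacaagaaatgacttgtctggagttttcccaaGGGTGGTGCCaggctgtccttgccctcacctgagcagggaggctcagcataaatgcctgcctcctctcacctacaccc
Saa2, chr7:46751583-46751789, plus strand: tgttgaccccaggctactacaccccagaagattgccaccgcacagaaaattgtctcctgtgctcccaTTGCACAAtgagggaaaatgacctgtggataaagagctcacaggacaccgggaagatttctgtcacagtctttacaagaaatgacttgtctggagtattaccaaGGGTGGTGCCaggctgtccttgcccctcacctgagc

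In the 250 bases before the RefSeq start, from which positions are counted, 3 motifs were searched on both strands, namely TTGNNCAA for C/EBP, GGGNNNNNCC for NF-kB and TTCNNNGAA for STAT factors. Of 32841 promoters of the same length, 5.65% held the first, 45.8% the second and 7.02% the third. Saa1 and Saa2 were 94.8% identical over this stretch and each held a C/EBP match (-182 to -175 in Saa1, -183 to -176 in Saa2) and an NF-kB match (-78 to -69 and -79 to -70). Lcn2 held a C/EBP match at -216 to -209 and an NF-kB match at -102 to -93, and Lrg1 held only an NF-kB match, at -34 to -25. The RefSeq start was that of GENCODE for Saa1 but lay downstream of it by 43 bases for Saa2, 24 for Saa3, 55 for Lrg1 and 513 for Lcn2, so that the matches of Lcn2 and Lrg1 lie inside the genes as GENCODE bounds them. The stretch of Saa3 was 48.5% identical to that of Saa1 and held none of the 3 patterns of letters, which says nothing about other spellings of these motifs or about sites elsewhere.

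Whole cells and mural cell-enriched mesenchymal cells were sequenced from every mouse, and the 8 libraries held 41462258 to 95036340 gene UMIs. Of 32121 cells, 30078 were kept, at a median of 9276.5 to 16228 UMIs per cell and library, the 4 Tubb3-/- libraries each lying above the WT libraries of their kind (9276.5 and 10121 against 11600 and 12443, and 12425 and 13574 against 15643 and 16228). The fibroblast lineage had 3786 cells, mural 4524, mesothelial 322, endothelial 2274, epithelial 320 and immune 4364, whereas 13727 cells (45.6%) had markers of several lineages and 761 (2.53%) of none. No cell barcode was found in 2 libraries of a pool, and 59 were found in both pools. Tubb3 checked the genotype, with 10.8 and 8.93 counts per 1000000 UMIs (CPM) in mural cells of WT mice against 0.786 and 1.39 CPM in Tubb3-/- mice. All CPM values are UMIs of a gene scaled to that total of UMIs summed over a lineage of 1 mouse, and are given for WT 1, WT 2, Tubb3-/- 1 and Tubb3-/- 2 in this order.

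The members differed in the lineage that held them. Saa3 was highest in fibroblasts, Lcn2 and Hp in epithelial cells, Lbp in mesothelial cells and Lrg1 in endothelial cells, while Saa1 and Saa2 were near 0 outside fibroblasts. Saa3, Lcn2, Hp, Lbp and Lrg1 were compared between neighboring lineages in the order of mean CPM. Of these steps, 11 passed an adjusted p of 0.05 and 14 did not (edgeR quasi-likelihood test on 24 sums with the mouse as a block). In these contrasts 37.2% to 73.6% of all 17467 genes tested passed, so the count does not set the members apart.

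**Figure D1:**
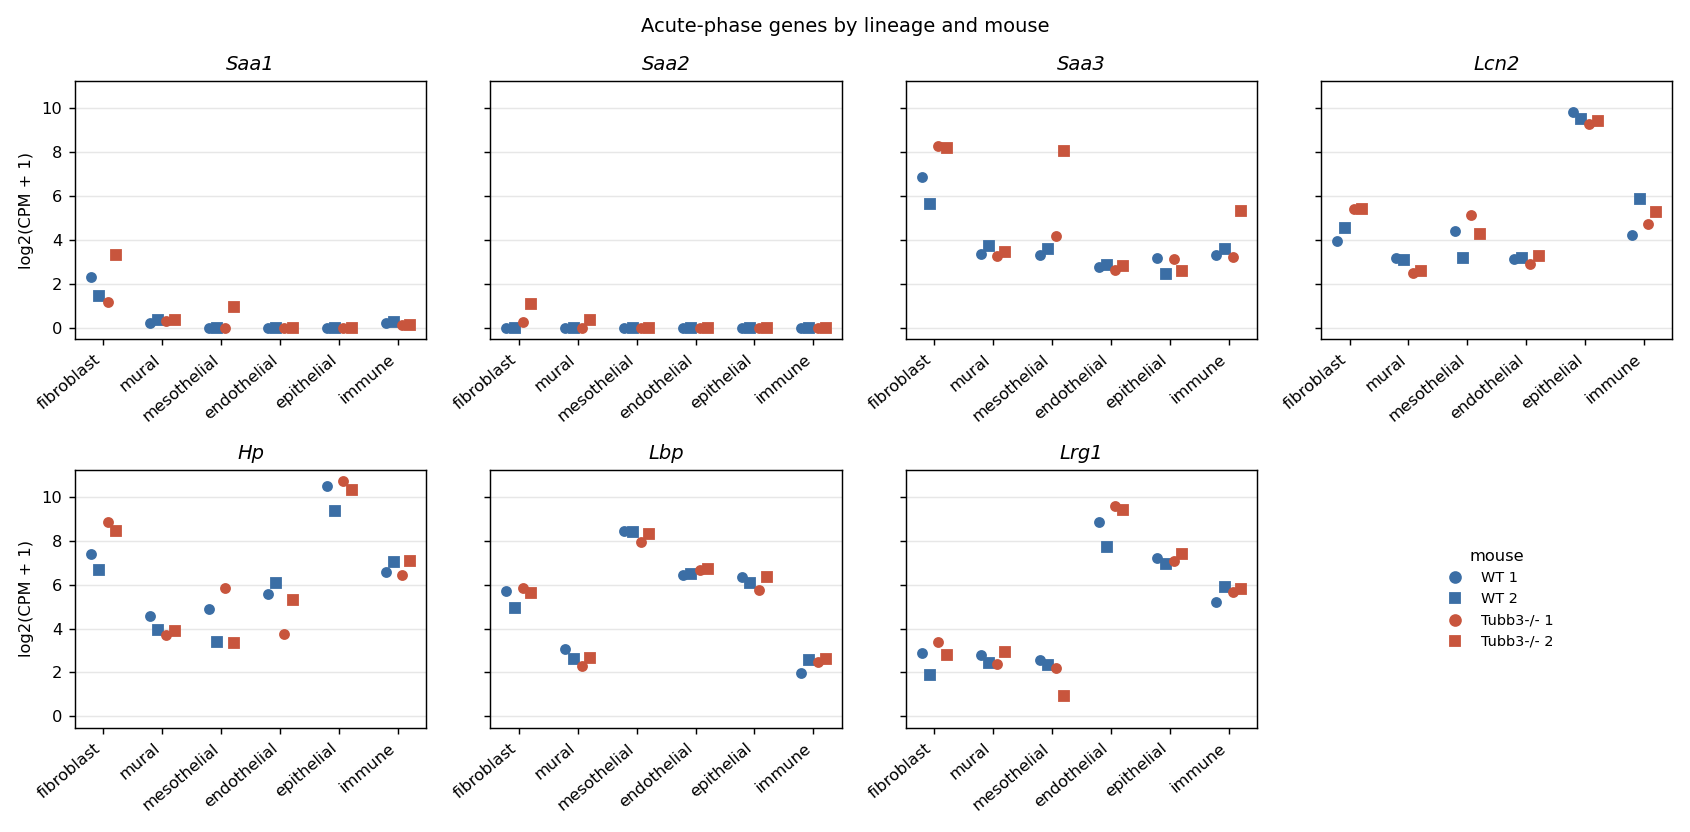
Levels of the 7 genes in the 6 lineages as log2(CPM + 1), 1 panel per gene and 1 point per mouse, WT mice in blue and Tubb3-/- mice in red (circles mouse 1, squares mouse 2). On the CPM scale, the fibroblast points of Saa3 lie at 48.4 to 309.5 CPM, whereas those of mural, endothelial and epithelial cells lie between 4.37 and 12.2 CPM.

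Saa3, a serum amyloid that in the mouse is made by fibroblasts, adipocytes and macrophages rather than mainly by liver, was a fibroblast transcript in these lungs. Its level in fibroblasts was 117, 48.4, 309.5 and 289 CPM. Fibroblasts stood 2.44 ± 0.50 (log2 fold, SE) above mesothelial cells, the next lineage (adjusted p = 0.000766; 37.2% of all genes passed in this contrast). Further down the order came mesothelial, immune, mural, epithelial and endothelial cells, and none of these neighbors was told apart by the test. The levels were 9.34, 12.2, 8.53 and 9.78 CPM in mural cells, 5.84, 6.28, 5.21 and 6.05 CPM in endothelial cells, and 8.14, 4.37, 7.65 and 5.04 CPM in epithelial cells. T-cell-like cells, taken as the background of free RNA, had 5.64, 5.38, 7.43 and 7.0 CPM. The endothelial and epithelial levels were at or close to it, and the mural level was above it in every mouse. Of immune cells, 4271 of 4364 came from whole-cell libraries, so this background is mostly theirs. Of mural cells, 4083 of 4524 came from the mural cell-enriched libraries, whose free RNA it hardly measures. Endothelial Saa3 was 21.4, 15.5, 8.71 and 15.2 CPM in the latter (6 to 14 UMIs) and 3.60, 4.50, 4.75 and 4.42 CPM in the former.

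Saa1 and Saa2, the serum amyloids of liver, were rare. Saa1 had 274 UMIs in all fibroblasts, at 3.95, 1.69, 1.27 and 8.78 CPM, and the richest cell of each mouse held 26, 15, 6 and 65 of them. In mural cells Saa1 was between 0.147 and 0.292 CPM. Endothelial and epithelial cells had 0 UMIs of Saa1, which allows up to 0.434 to 1.35 CPM in endothelial and 2.04 to 2.18 CPM in epithelial cells of a mouse (3 counts, counting error only). Saa2 had 25 UMIs in fibroblasts, 17 of them in 1 cell of Tubb3-/- mouse 2, and it was too low for a test in any lineage.

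Lcn2, lipocalin-2, binds bacterial siderophores and withholds iron. It was highest in epithelial cells, at 892, 737, 619 and 679 CPM. Epithelial cells stood 4.24 ± 0.25 above immune cells on the log2 scale (adjusted p = 5.01e-11; 64.3% of all genes passed), and the immune level was 17.5, 56.9, 25.6 and 37.2 CPM. Immune cells, fibroblasts and mesothelial cells, in this order, were not told apart as neighbors by the test, and mesothelial cells stood 1.34 ± 0.43 above endothelial cells (adjusted p = 0.0151; 47.1% passed). This last step was no longer called without WT mouse 1 (0.95, adjusted p = 0.0586) or Tubb3-/- mouse 1 (0.95, adjusted p = 0.194).

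Hp, haptoglobin, binds free hemoglobin. Its epithelial level was 1461, 651, 1662 and 1269 CPM, 2.20 ± 0.33 above fibroblasts on the log2 scale (adjusted p = 1.64e-05; 57.3% of all genes passed). Fibroblasts in turn stood 1.00 ± 0.33 above immune cells (adjusted p = 0.0104; 73.6% passed), a call that was lost without WT mouse 1 (0.71, adjusted p = 0.0861). Immune cells, at 94.0, 131, 84.6 and 135 CPM, stood 1.83 ± 0.35 above endothelial cells (adjusted p = 0.000186; 63.1% passed).

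Lbp, which carries bacterial lipopolysaccharide to CD14, had its highest level in mesothelial cells, at 345, 340.4, 248 and 314 CPM. These stood 1.75 ± 0.17 above endothelial cells on the log2 scale (adjusted p = 7.75e-08; 47.1% passed), where Lbp was 86.3, 87.7, 101 and 105 CPM. Endothelial, epithelial and fibroblast cells were not separated as neighbors. Fibroblasts, at 51.7, 29.5, 57.0 and 48.5 CPM, stood 3.15 ± 0.19 above mural cells (adjusted p = 1.87e-10; 43.4% passed), and mural cells had 3.93 to 7.35 CPM.

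Lrg1, a leucine-rich glycoprotein that modulates TGF-beta signaling in endothelium, was an endothelial transcript first. Its endothelial level was 466, 206, 759.7 and 667 CPM, 1.70 ± 0.23 above epithelial cells (log2 fold, adjusted p = 4.41e-06; 56.7% of all genes passed). Epithelial cells, at 120.1 to 165 CPM, stood 1.26 ± 0.23 above immune cells (adjusted p = 0.000127; 64.3% passed), and immune cells 3.13 ± 0.25 above fibroblasts (adjusted p = 2.63e-09; 73.6% passed). Fibroblast, mural and mesothelial levels lay between 0.919 and 9.44 CPM in all 4 mice.

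The genotypes were then compared within each lineage. In fibroblasts, the levels of Saa3, Lcn2 and Hp in each Tubb3-/- mouse exceeded those in each WT mouse, and in endothelial cells Lrg1 did. No member passed an adjusted p of 0.05 in any lineage in the 30 tests made (edgeR quasi-likelihood test on sums of 4 mice), and 8 had an unadjusted p below 0.05. Of all genes, 0 of 14779 passed in fibroblasts (0%), 0 in mural, endothelial, epithelial and immune cells, and 22 of 9527 in mesothelial cells (0.231%). The p-values measure the spread between these 4 mice.

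In fibroblasts, Saa3 averaged 82.5 ± 48.1 CPM in WT mice and 299 ± 14.5 CPM in Tubb3-/- mice (SD, n = 2 each). The lower Tubb3-/- mouse was above the higher WT mouse, 289 against 117 CPM, and the WT mice differed from each other more than the Tubb3-/- mice did. The estimate was 1.83 ± 0.41 on the log2 scale, 3.56-fold (adjusted p = 0.129).

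Lcn2 in fibroblasts had 14.3 and 22.3 CPM in WT mice against 40.9 and 41.4 CPM in Tubb3-/- mice. The mean was 18.3 ± 5.69 CPM in WT mice and 41.1 ± 0.359 CPM in Tubb3-/- mice, and the groups did not overlap. The estimate was 1.17 ± 0.18, 2.25-fold (adjusted p = 0.0855).

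Hp in fibroblasts had 169 and 101 CPM in WT mice against 458 and 342 CPM in Tubb3-/- mice, and again the groups did not overlap. Means were 135 ± 48.0 and 400.4 ± 82.1 CPM. The estimate was 1.55 ± 0.30, 2.93-fold (adjusted p = 0.108). DESeq2 called Lcn2 (adjusted p = 5.78e-05) and Hp (8.79e-06) but not Saa3 (0.0849), in a comparison in which it called 3.96% of all genes.

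Lbp, Lrg1 and Saa1 overlapped between genotypes in fibroblasts, with estimates of 0.36 ± 0.29, 0.75 ± 0.45 and 0.78 ± 0.88. Thus 3 of the 6 members tested had both Tubb3-/- mice above both WT mice, as 24.5% of all genes did, and the same 3 had an unadjusted p below 0.05 in the upward direction, as 7.21% did. In either direction the shares of all fibroblast genes were 48.1% without overlap and 18.2% below 0.05. The median log2 fold change of the 6 members was 0.98, against -0.0044 over all genes tested. Cells were deeper in Tubb3-/- mice, with medians of 19221 and 18336 UMIs per fibroblast against 16350 and 14686.5 in WT mice. The part of depth in these values was not tested. Of other cells that express Lcn2, the sum of 5 neutrophil genes was 9.53, 11.1, 11.1 and 10.1 CPM in the fibroblast sums and overlapped between genotypes, and that of 4 alveolar type 2 (AT2) genes was 26.7, 31.6, 24.3 and 24.2 CPM, lower in both Tubb3-/- mice. Red blood cell genes, summed over 4 genes, were 432, 664, 185 and 426 CPM.

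The 2 kinds of library gave the same picture for Lcn2 and Hp but not fully for Saa3. Saa3 in fibroblasts was 93.7, 19.5, 275 and 87.3 CPM in the whole-cell libraries, where Tubb3-/- mouse 2 lay below WT mouse 1. In the mural cell-enriched libraries it was 126, 63.6, 331 and 398 CPM and the groups did not overlap. Lcn2 was 8.10, 13, 49.2 and 41.1 CPM in the former and 16.8, 27.3, 35.5 and 41.5 CPM in the latter. Hp was 213, 72.4, 420.1 and 289.8 CPM and 151, 116, 483 and 371 CPM, respectively. For both genes, both Tubb3-/- mice were above both WT mice in each kind of library.

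**Figure D2:**
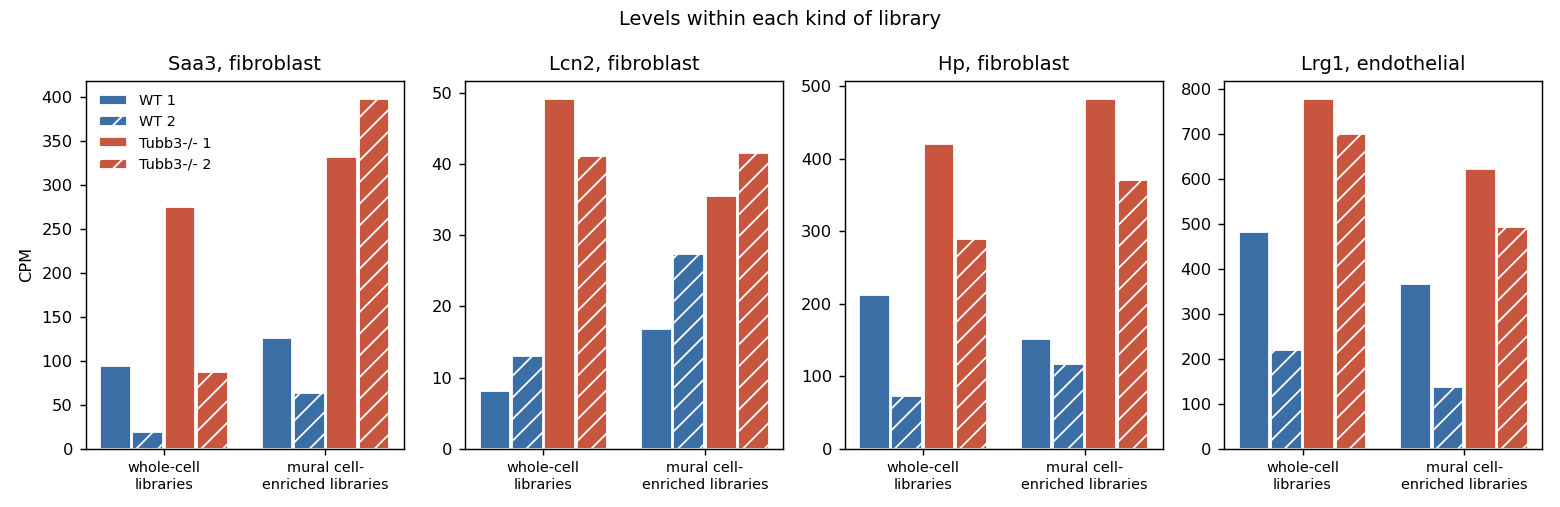
CPM of fibroblast Saa3, Lcn2 and Hp and endothelial Lrg1 in the whole-cell and the mural cell-enriched libraries taken separately, 1 bar per mouse and axes that differ between panels. Fibroblast Saa3 of Tubb3-/- mouse 2 is 87.3 CPM in the whole-cell library and 398 CPM in the mural cell-enriched library, and fibroblast Lcn2 and Hp and endothelial Lrg1 keep both Tubb3-/- mice above both WT mice in each.

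Saa3 was carried by few fibroblasts. At least 1 UMI was found in 13.1%, 12.9%, 21.3% and 18.9% of fibroblasts, but 26, 13, 64 and 50 cells with 10 or more UMIs (3.0%, 1.46%, 6.07% and 5.13% of cells) held 92.1%, 80.8%, 95.9% and 96.1% of all Saa3 UMIs. Cells with 100 or more numbered 6, 1, 19 and 10. The 379 fibroblasts richest in each gene (10% of 3786) held 98.2% of Saa3 UMIs, 97.8% of Lcn2, 87.1% of Hp and 55.6% of Lbp UMIs. The single richest cell of each mouse had 255, 179, 542 and 1152 Saa3 UMIs, and without it the levels were 99.4, 35.4, 284 and 228 CPM, still without overlap between genotypes.

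**Figure D3:**
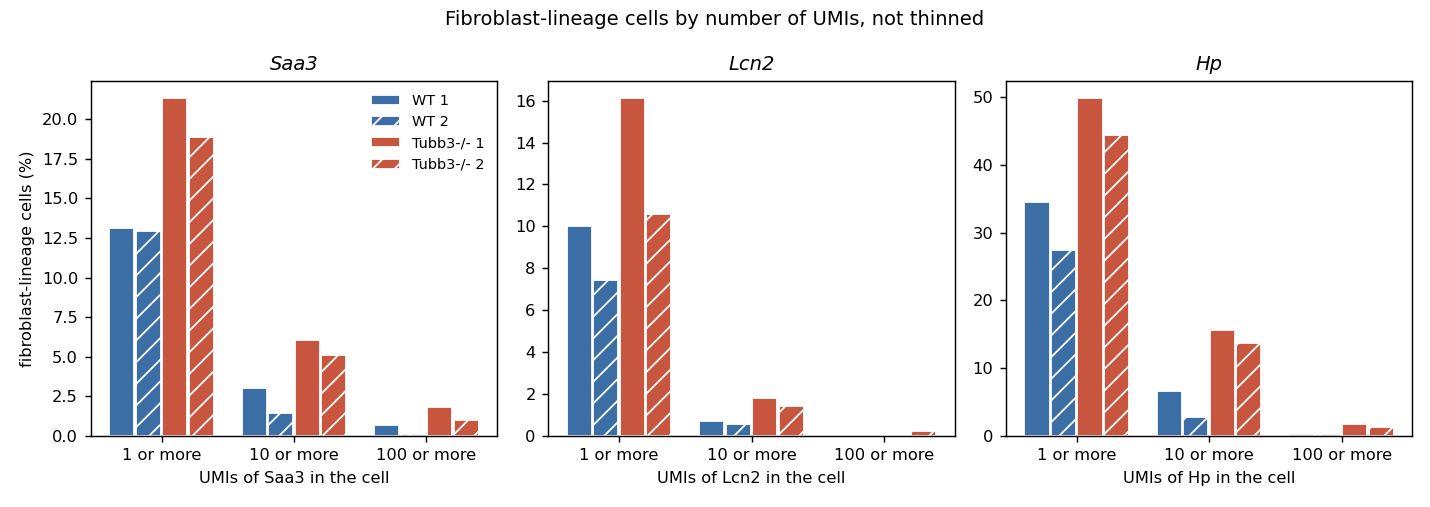
Share of fibroblast-lineage cells of each mouse with at least 1, 10 or 100 UMIs of Saa3, Lcn2 or Hp, cells not thinned to equal depth. Cells with 10 or more Saa3 UMIs lie at 3.0% and 1.46% in WT mice, and those of Tubb3-/- mice at 6.07% and 5.13%.

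After each cell had been thinned to 2000 UMIs, Saa3 was found in 5.34%, 3.85%, 8.56% and 7.84% of fibroblasts. The share in T-cell-like cells, thinned alike, was 0.327%, 1.52%, 2% and 1.14%, and unthinned it was 3.55%, 4.04%, 5.13% and 4.91% at a median of 6336.5 UMIs. Thinned Hp shares in fibroblasts were 11.9%, 8.84%, 22.6% and 19.9%, against 3.71% to 4.25% in T-cell-like cells. Thinned Lcn2 shares were 1.86%, 1.47%, 4.0% and 2.37% against 1.31%, 1.01%, 1.71% and 0.379%, so that in WT mice they were close to this background. Immune cells came mostly from whole-cell libraries, whereas 2465 of 3786 fibroblasts came from the mural cell-enriched libraries, whose background was not measured. Each of the 3 shares was higher in both Tubb3-/- mice (exact two-sided permutation p = 0.333, the smallest that 2 against 2 mice can give).

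Lcn2 and Hp were found with Saa3 in the same fibroblasts. In thinned cells, Lcn2 was found in 8.70%, 8.82%, 16.7% and 18.4% of fibroblasts with Saa3 and in 1.47%, 1.18%, 2.81% and 1.01% of those without. The 153 fibroblasts with 10 or more Saa3 UMIs were set beside those with none, as a description, since Saa3 chose them. Lcn2 was 169.6, 460.3, 363 and 557 CPM in the former and 9.04, 17.0, 18.1 and 6.93 CPM in the latter. Hp was 1372, 339.6, 2351 and 1531 CPM against 126, 106, 312 and 242 CPM, and Lbp 100.2, 125, 90.1 and 99.4 CPM against 48.9, 26.0, 55.2 and 44.6 CPM. All 4 mice showed these differences, WT mice included. Median depths were 15874 to 20546 UMIs in the Saa3-rich cells and 14653 to 18818 in cells without Saa3.

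Other genes in the Saa3-rich cells, named after their values were seen, included Serpina3n, an acute-phase protease inhibitor, at 1359, 1005, 1763 and 1356 CPM against 516, 371, 822 and 636 CPM in cells without Saa3. The complement gene C3 was 1586, 1774, 1534 and 1658 CPM against 796, 651, 718 and 676 CPM. The chemokine gene Cxcl12 was 570.4, 451, 724 and 689 CPM against 209.5, 164, 258 and 254 CPM. Cthrc1, a gene of fibrotic fibroblasts, went the other way, at 7.71, 22.3, 23.5 and 11.9 CPM against 79.4, 57.0, 209 and 102 CPM. In each of the 4 mice, the cells rich in Saa3 had more Lcn2, Hp, Lbp, Serpina3n, C3 and Cxcl12 and less Cthrc1. Sfrp1, Il6, Nfkbiz and Il1r1, measured alike, were also higher in each mouse, but Socs3 and Cebpd were not. Socs3 was 272, 460, 212 and 353 CPM against 393, 389, 253 and 274 CPM. Cebpd was 1939, 2534, 1890 and 2471 CPM against 2248, 2159, 1608 and 1796 CPM. Saa1 was 5.78, 4.47, 12.9 and 115.8 CPM against 2.40, 1.89, 0.619 and 2.60 CPM, also higher in each mouse but from few UMIs. Lrg1 was not higher in every mouse, at 50.1, 0, 36.3 and 18.2 CPM against 5.20, 2.83, 6.19 and 4.6 CPM. Saa2 was higher in 1 mouse, at 0, 0, 0 and 17.3 CPM against 0, 0, 0.124 and 0.0666 CPM.

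Within fibroblasts, cells with at least 2 markers of a finer type, and more of it than of any other, were placed in alveolar-like, adventitial-like, fibrotic-like, peribronchial-like and proliferating classes. Of the 153 cells with 10 or more Saa3 UMIs, 133 were alveolar-like (4.91% of 2708 such cells), 8 adventitial-like (3.9% of 205) and 12 had no class. None of 251 fibrotic-like and none of 62 peribronchial-like cells had 10 or more. Saa3 was 149.8, 48.1, 454 and 395 CPM in alveolar-like cells and 41.2, 6.71, 158 and 219 CPM in adventitial-like cells, and 1.38, 0, 6.91 and 5.74 CPM in fibrotic-like cells. Hp was likewise 221, 109.6, 670.2 and 456 CPM in alveolar-like and 16.5, 11.7, 46.8 and 59.7 CPM in fibrotic-like cells. Lcn2 was 18.6, 24, 58.8 and 56.5 CPM in alveolar-like cells, higher in each Tubb3-/- mouse than in either WT mouse. Over all fibroblasts 24.5% of all genes had this pattern, and no such share was computed for a class. These classes were not tested, and 15 proliferating cells were too few for a value.

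**Figure D4:**
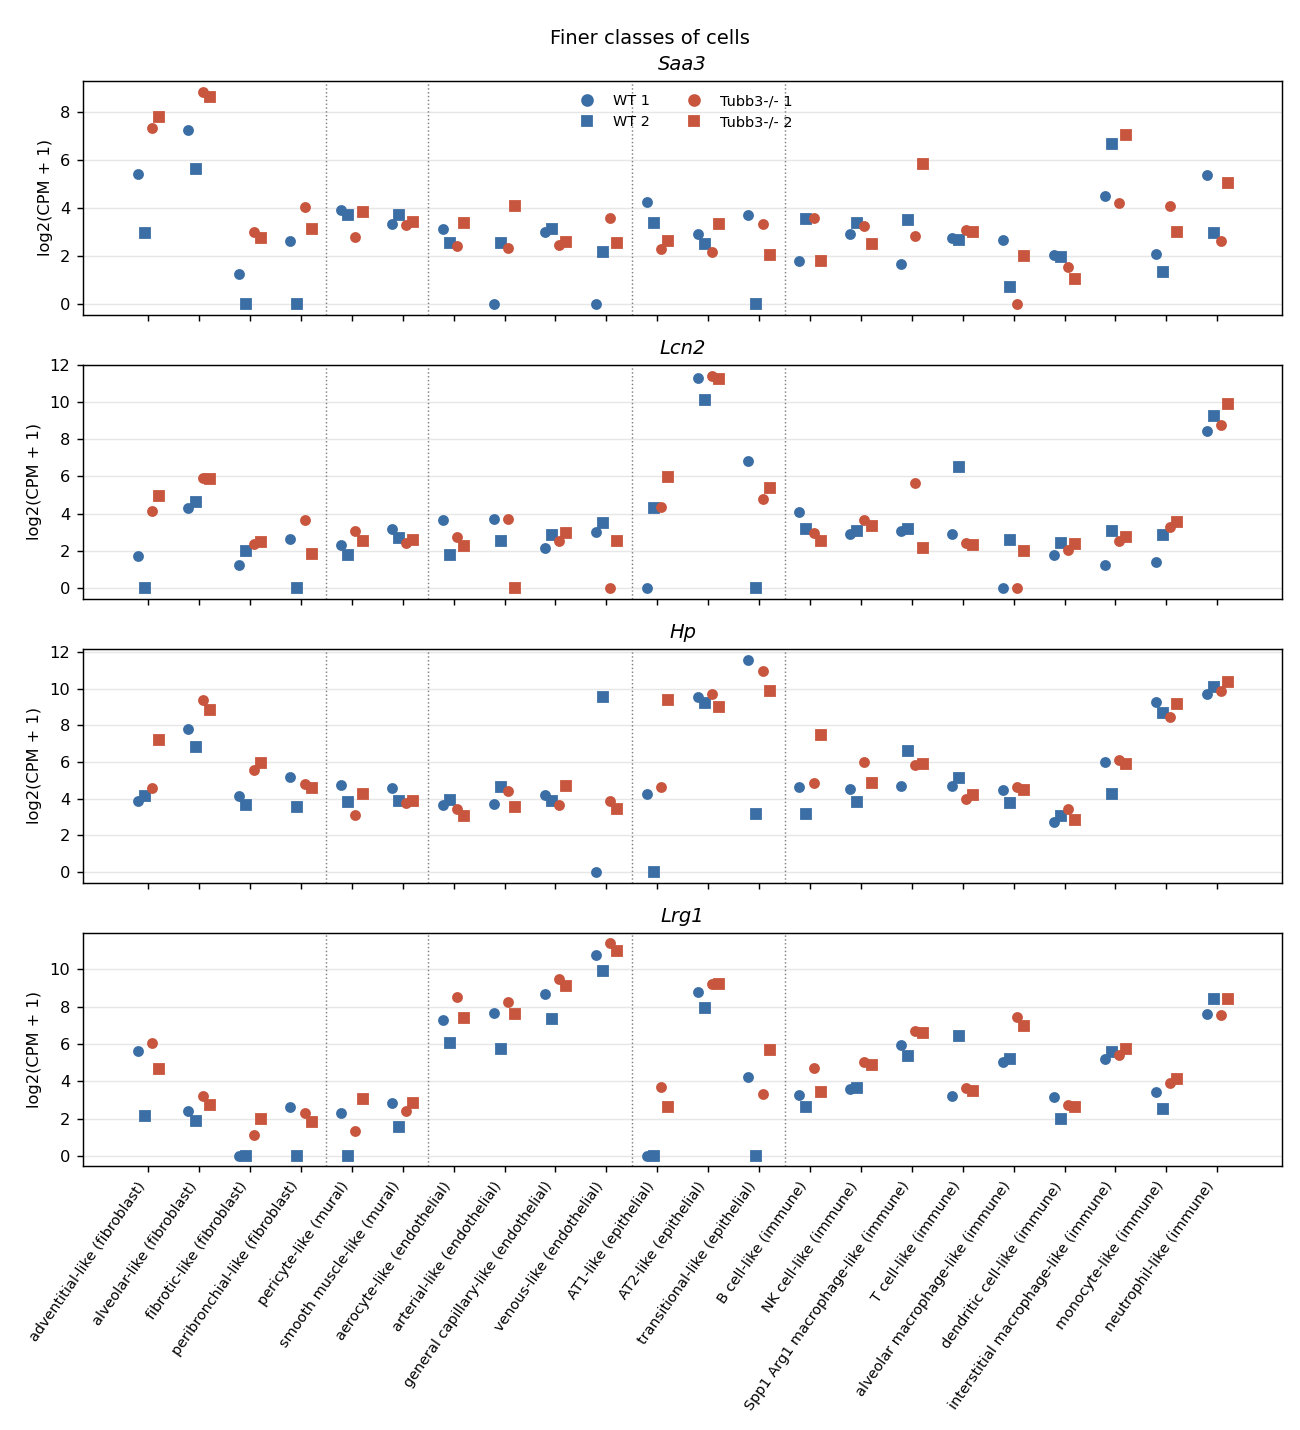
Levels of Saa3, Lcn2, Hp and Lrg1 in finer classes of cells as log2(CPM + 1), 1 point per mouse, WT mice in blue and Tubb3-/- mice in red, with dotted lines between lineages. On the CPM scale, Saa3 lies at 48.1 to 454 CPM in alveolar-like fibroblasts and at 6.91 CPM or less in fibrotic-like fibroblasts, and Lrg1 at 946 to 2678 CPM in venous-like endothelial cells.

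In mesothelial cells, which cover the lung, Saa3 was 8.96, 10.8, 17.0 and 261 CPM. Tubb3-/- mouse 2 alone was high, and 1 of its 72 cells held 189 UMIs, 66.5% of its Saa3. The estimate of 3.75 ± 1.01 (adjusted p = 0.255) fell to 0.80 (adjusted p = 0.754) without that mouse. Lbp, the leading member of this lineage, was -0.29 ± 0.17 (adjusted p = 0.722), lower in each Tubb3-/- mouse than in either WT mouse. Of the 4 members tested, 2 had groups that did not overlap and 1 had an unadjusted p below 0.05, where 37.6% and 8.37% of all genes did.

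In endothelial cells, Lrg1 averaged 336 ± 184 CPM in WT mice and 714 ± 65.2 CPM in Tubb3-/- mice (SD, n = 2 each). Both Tubb3-/- mice, at 759.7 and 667 CPM, were above WT mouse 1 (466 CPM) and well above WT mouse 2 (206 CPM). The estimate was 1.10 ± 0.33, 2.15-fold (adjusted p = 0.226). Leaving out each mouse gave 0.62 to 1.82, the highest without WT mouse 1. The order of the mice was the same in both kinds of library, at 481, 219, 778 and 698 CPM in whole-cell and 367, 138, 621 and 492 CPM in mural cell-enriched libraries. Thinned shares of endothelial cells with Lrg1 were 31.9%, 14.4%, 49.0% and 43.0% (exact two-sided permutation p = 0.333), against 1.14% to 3.03% in T-cell-like cells.

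The Lrg1 pattern ran through the endothelial classes. Lrg1 was 1747, 946, 2678 and 2061 CPM in 100 venous-like cells, 414, 162, 727 and 554 CPM in 1558 general capillary-like cells, and 153, 64.5, 371 and 167 CPM in 234 aerocyte-like cells. In each of these 3 classes both Tubb3-/- mice were above both WT mice. Over the whole lineage 21.1% of all genes had this pattern, and no such share was computed for a class. In 72 arterial-like cells the levels were 203, 52.1, 302 and 191 CPM, and the groups overlapped.

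Hp and Lbp went apart in endothelial cells. Hp was 46.7, 66.3, 12.4 and 38.4 CPM, below WT in both Tubb3-/- mice, with an estimate of -1.18 ± 0.44 (adjusted p = 0.310). That difference rested on single cells, which held 71 and 212 UMIs (68.3% and 80.3%) in WT mice, against 3 and 112 UMIs (3.49% and 47.7%) in the Tubb3-/- mice. Without the richest cell of each mouse Hp was 14.9, 13.2, 12 and 20.2 CPM, and the groups overlapped. Lbp, at 86.3 and 87.7 against 101 and 105 CPM, had an estimate of 0.25 ± 0.10 (adjusted p = 0.315) and was mostly venous and general capillary, with 262 to 387 and 80.0 to 106 CPM against 3.83 to 18.5 CPM in aerocyte-like cells. Of 5 members tested, 3 did not overlap between genotypes and 3 had an unadjusted p below 0.05, where 44.8% and 13.5% of all genes did. Red blood cell genes, summed over 4 genes, were 38.2, 4587, 1394 and 33.2 CPM in this lineage, and their part in the endothelial values was not tested.

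In epithelial cells no member passed the test. Lcn2, at 814 ± 109 CPM in WT and 649 ± 42.2 CPM in Tubb3-/- mice (SD, n = 2 each), was lower in both Tubb3-/- mice, with an estimate of -0.37 ± 0.18 (adjusted p = 0.976). Hp was 0.43 ± 0.35 (adjusted p = 0.976) and overlapped. By class, Lcn2 was 2501, 1118, 2757 and 2386 CPM in 81 AT2-like cells and 113, 0, 26.7 and 41.0 CPM in 60 transitional-like cells. Hp was 3076, 8.03, 2025 and 939.5 CPM in the transitional-like cells and 741, 604, 825 and 518 CPM in AT2-like cells. The makeup of the lineage differed between mice, with a summed level of 4 AT2 genes of 2014, 2949, 1197 and 2023 CPM, and its part in these values was not tested. Of 5 members, 1 did not overlap and none had an unadjusted p below 0.05, where 34.2% and 4.27% of all genes did.

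In immune cells, Lcn2 and Hp were highest in neutrophil-like cells. Lcn2 was 342, 600.3, 443 and 940.4 CPM in 445 neutrophil-like cells, and Hp 834, 1076, 920.5 and 1336 CPM. The sum of 5 neutrophil genes over the lineage was 2309, 5043, 1704 and 3456 CPM, and immune Lcn2 was 17.5, 56.9, 25.6 and 37.2 CPM. Both were highest in WT mouse 2, but the sum was lowest in Tubb3-/- mouse 1 and Lcn2 in WT mouse 1. The richest immune cell of each mouse held 11, 129, 104 and 92 Lcn2 UMIs (5.47%, 23.1%, 30.0% and 22.7%). The part of neutrophils in the immune Lcn2 values was not tested. The genotype estimates were -0.22 ± 0.51 for Lcn2 (adjusted p = 0.927) and -0.02 ± 0.25 for Hp (adjusted p = 0.987). Saa3 was 8.88, 10.9, 8.25 and 38.3 CPM, and within interstitial macrophage-like cells 21.8, 101, 17.3 and 129.8 CPM (337 cells), high in mouse 2 of each genotype. Lrg1 was 32.0, 35.6, 176 and 125 CPM in 111 alveolar macrophage-like cells and 59.6, 39.4, 104 and 95.8 CPM in 288 Spp1 Arg1 macrophage-like cells. In both classes the groups of mice did not overlap, which over the whole lineage held for 40.1% of all genes. No such share was computed for a class, and neither class was tested. Over the whole lineage, none of 5 members had groups without overlap or an unadjusted p below 0.05, where 40.1% and 8.27% of all genes did. Red blood cell genes, summed over 4 genes, were 46.6, 31.2, 500 and 996 CPM in this lineage. All 4 were higher in Tubb3-/- mice at an unadjusted p below 0.05, against 4.24% of all genes. Their part in the immune values was not tested.

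In mural cells, the lineage in which Tubb3 itself is highest, the 5 members tested were at 3.93 to 23.1 CPM. Lcn2, at 8.09 and 7.38 against 4.6 and 4.89 CPM, had the lowest unadjusted p (0.0109) and an estimate of -0.72 ± 0.20 (adjusted p = 0.289). The richest mural cell of each mouse held 37, 18, 2 and 2 Lcn2 UMIs, and without it the levels were 5.37, 5.05, 4.48 and 4.75 CPM. T-cell-like cells had 6.51, 90.1, 4.30 and 4.0 CPM of Lcn2. Their value in WT mouse 2 stood far above those of the other mice and gives no usable background there. Most mural cells came from the mural cell-enriched libraries and most immune cells from the whole-cell libraries. The background of mural cells is therefore uncertain in the other mice too. No expression is read from the mural values. Of 5 members tested, 2 did not overlap and 1 had an unadjusted p below 0.05, where 41% and 11.1% of all genes did.

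Whether the genotype effect differed between fibroblasts and other lineages was tested by an interaction term, and no member passed. All genes passed at 0.00573% for mural, 0.0573% for mesothelial, 0.0229% for endothelial, 0.0229% for epithelial and 0.0916% for immune cells against fibroblasts. The largest difference relative to its error was that of Hp in endothelial cells, -2.83 ± 0.71 (adjusted p = 0.285). For Lcn2 in epithelial cells it was -1.62 ± 0.46 (adjusted p = 0.404), and for Saa3 in mural cells -2.22 (adjusted p = 1). That a genotype difference was particular to fibroblasts is therefore not shown by these 4 mice.

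The genes that induce acute-phase transcription were described next. Of 17 transcription factors and feedback genes (NF-kB, STAT and C/EBP factors and their inhibitors), all measured in fibroblasts, none passed the adjusted test, 11 had an unadjusted p below 0.05, all lower in Tubb3-/- mice, and DESeq2 called 5, all lower. Of all genes in fibroblasts, 10.9% were lower at an unadjusted p below 0.05, and DESeq2 called 2.79% lower. Their median log2 fold change was -0.46, against -0.0044 over all genes, with 1 of 17 above 0. Nfkbiz, an NF-kB cofactor, was 687, 656, 382 and 386 CPM (-0.81 ± 0.11, adjusted p = 0.0796). Socs3, an inhibitor of STAT3 signaling that STAT3 induces, was 384, 385, 249.6 and 284 CPM (-0.53 ± 0.11, adjusted p = 0.110), and Stat3 was 461, 452, 345 and 322 CPM (-0.46 ± 0.11, adjusted p = 0.139). These 3 were named after their values were seen, and in each both Tubb3-/- mice were below both WT mice. Within each mouse, fibroblasts with 10 or more Saa3 UMIs had more Nfkbiz, at 809, 858, 506 and 495 CPM against 678, 648, 364 and 376 CPM in those without Saa3. Socs3 was higher in such cells in WT mouse 2 and Tubb3-/- mouse 2 only. In sums over all fibroblasts of a mouse, Saa3, Lcn2 and Hp lay above WT in Tubb3-/- mice. Most regulators of acute-phase transcription lay below WT, and no gene of either kind passed the adjusted threshold. The same list had a median of -0.34 in mural cells, where 7 of 17 had an unadjusted p below 0.05, all lower, against 5.59% of all genes. In endothelial cells the median was -0.23 and 5 of 17 were lower by this p, against 6.51% of all genes. The medians were 0.05 in immune cells (0 of 17 below 0.05 in either direction), -0.05 in mesothelial cells (2 of 16, 1 in each direction) and -0.08 in epithelial cells (1 of 16, lower). In these 3 lineages, 8.27%, 8.37% and 4.27% of all genes had an unadjusted p below 0.05. The median of all genes was within 0.01 of 0 in every lineage.

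Of the cytokines that induce the response, 9 of 14 were measured in fibroblasts, and 1 was lower at an unadjusted p below 0.05 (of all genes 10.9% were). This cytokine was Il6, at 664, 311, 249 and 206 CPM, lower in both Tubb3-/- mice (-1.12 ± 0.37, adjusted p = 0.214). Of their receptors, 14 of 15 were measured and 4 had an unadjusted p below 0.05, all lower (of all genes 10.9% were), with a median of -0.04, among them Il6ra at 54.0, 62.6, 32.6 and 34.7 CPM (-0.79 ± 0.09, adjusted p = 0.0757, chosen after its values were seen). Of the receptors and partners of the members, 16 of 18 were measured, with 2 higher and 1 lower by the unadjusted p, where 18.2% of all genes passed in either direction. In the other lineages each of these 3 lists had 0 to 3 genes with an unadjusted p below 0.05, of 3 to 18 measured, where 4.27% to 13.5% of all genes did. In mural cells 3 of 14 receptors were higher (of all genes 5.49% were). In epithelial cells 3 of 9 receptors and partners were lower (2.24%). In immune cells 1 of 12 cytokines was higher and 2 were lower, and 2 of 18 receptors and partners were higher and 1 lower (8.27% in either direction). The 7 cytokines measured in mural cells had a median of -0.68, with 1 lower by this p (of all genes 5.59% were). In none of the 6 lineages did a gene of these 3 lists pass the adjusted edgeR test. DESeq2 called 1 receptor lower in fibroblasts (2.79% of all genes were) and 1 cytokine lower in mural cells (0.442%).

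Among other acute-phase genes, 12 of 25 were measured in fibroblasts, where none passed and 3 had an unadjusted p below 0.05, all higher (of all genes 7.21% were), with a median of 0.12. Serpina3n, chosen after its values were seen, was 545, 397, 918 and 707 CPM (0.78 ± 0.23, adjusted p = 0.186), whereas C3 was 829.8, 678, 797 and 763 CPM (0.04). In mesothelial cells 7 were measured, and all 7 had an estimate above 0, with a median of 0.81. Of these, 5 had an unadjusted p below 0.05, all higher, against 4.2% of all genes, namely Cp, Steap4, Mt1, Mt2 and Serpina3n. Steap4, a metalloreductase, was 36.8, 36.5, 74.3 and 82.7 CPM (1.09 ± 0.21, adjusted p = 0.118), and Mt2, a metallothionein, was 315, 159.7, 490.9 and 487 CPM (1.06 ± 0.27, adjusted p = 0.213). In endothelial cells 10 were measured, of which 3 were lower (Mt1, Mt2 and Itih4) and 1 higher (Serpina3g) by the unadjusted p, with a median of -0.20, where 13.5% of all genes passed. The medians were 0.12 in mural cells (1 of 12 higher), -0.14 in epithelial cells (1 higher and 1 lower of 8) and -0.09 in immune cells (2 of 9 lower). Of all genes, 5.49% were higher in mural cells, 4.27% passed in either direction in epithelial cells and 4.03% were lower in immune cells. The acute-phase genes above were named after their values were seen. DESeq2 called 2 of these genes in fibroblasts, 1 in mural and 2 in mesothelial cells, all higher. Of all genes it called 3.96%, 1.09% and 0.378% there. In mesothelial cells, Cp, ceruloplasmin, a copper-carrying ferroxidase, was the one gene of all lists that passed the adjusted edgeR test. It rose from 68.7 and 56.8 CPM in WT mice to 186 and 200.3 CPM in Tubb3-/- mice (1.63 ± 0.19, adjusted p = 0.0221), a call that was lost in the mural cell-enriched libraries alone (1.48, adjusted p = 0.0507) and in the whole-cell libraries alone (2.74, adjusted p = 0.932). In fibroblasts, which had more of it, Cp was 903, 1084, 794 and 862 CPM. The study names Saa3, Lcn2, Cxcl12 and Sfrp1 for inflammatory fibroblasts. Cxcl12 and Sfrp1 were both higher in fibroblasts of both Tubb3-/- mice, at 219 and 175 against 303 and 284 CPM (0.57 ± 0.16, adjusted p = 0.172) and at 239 and 181 against 463 and 423 CPM (1.06 ± 0.18, adjusted p = 0.0950). From these same mice the study reports more inflammatory fibroblasts, and more activated capillary endothelial cells marked by Lrg1 among others, in Tubb3-/- mice. The levels given here are not independent of that report.

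Genes whose levels followed those of the members over the 24 sums were sought among 9936 genes with a mean of 10 CPM or more, by Pearson correlation of log2(CPM + 1). The points share mice and lineages, so r mostly reflects which lineage holds a gene. For Saa3 the highest were Svep1 (0.829), Chl1 (0.819), Phex (0.813), Robo2 (0.800) and Ostc (0.794). For Lcn2 they were Atxn10 (0.977), H2afj (0.947), Prdx6 (0.944), Acot1 (0.939) and Enkur (0.937), and for Lrg1 Ceacam1 (0.961), Phf20l1 (0.956), Cd36 (0.951), Abhd17b (0.949) and Lrrc8c (0.946). Between members, r was 0.885 for Lcn2 with Hp and 0.818 for Saa1 with Saa3, and -0.0793 for Lcn2 with Saa3, which are highest in different lineages.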

How the data were processed

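Lung cells of the 4 mice were tagged with CellPlex oligonucleotides, pooled by kind of sample and sequenced with 10x 3' v3.1 chemistry. The deposited values are raw UMI counts per gene and cell, which the authors obtained with Cell Ranger 7.1.0 on mm10 with an added Cre gene, with no normalization or removal of free RNA. Tag counts were set aside. Cells with 200 to 7500 genes and at most 15% mitochondrial UMIs were kept (30860). Doublets were removed at a Scrublet score of 0.25 (scanpy 1.11.5), 278 cells (1.96%) and 504 cells (3.02%) of the pools, since the automatic threshold marked 1 whole-cell doublet. This score was chosen after the numbers were seen. UMIs were summed per mouse and lineage over both libraries, since cells are not replicates, and tested in R 4.3.3 by edgeR 4.0.16 (quasi-likelihood F test after filterByExpr and TMM), and p-values were adjusted by the Benjamini-Hochberg method over the genes of a comparison, at 0.05. Levels between lineages, and differences of genotype effects, used 24 sums with the mouse as a block. Shares used cells thinned to 2000 UMIs and an exact permutation test over mice. Fold changes are on the log2 scale with SE. A CPM of 0 was read against 3 counts, and intervals and floors cover counting error only. Cells with markers of several lineages held 64.4% of Saa3 and 66.5% of Lcn2 UMIs, and 28.5% of these cells had fibroblast and mural markers. Fibroblasts held 30.7% and 8.43%. Finer classes had at least 2 markers and 50 cells, and were described without a test. Named were the members, genes of the lists that passed, and the 5 genes most like Saa3, Lcn2 and Lrg1, and other genes are marked as chosen after their values were seen. Members and lists were chosen with earlier results of these data known. Alternatives were DESeq2 1.42.0, RLE factors, library size alone, no filter on low counts, the replicate number as a block, each kind of library alone, doublets kept, 2 or more marker UMIs, a mitochondrial limit of 10%, each mouse left out and, added after the data were seen, levels without each mouse's richest cell. Tests were checked on simulated counts. Lymphatic, club, ciliated and proliferating fibroblast cells (39, 10, 49 and 15) were too few for levels.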

Additional observations from a re-analysis of the deposited data

Results flagged for a closer look

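Cells that were in no comparison, those with markers of several lineages or of none, also held member transcripts. In the cases given next, both Tubb3-/- mice were above both WT mice. The share of all genes with this pattern was not computed for these cells, and in fibroblasts it was 24.5%. In cells with markers of several lineages, the mean of the Tubb3-/- mice was 139.6 CPM for Saa3 (142 and 138, WT 119 and 42.8), 262 CPM for Hp (299 and 226, WT 213 and 129.6) and 52.6 CPM for Lbp (52.0 and 53.3, WT 49.8 and 45.0). It was 61.6 CPM for Lrg1 (64.2 and 58.9, WT 28.8 and 43.7), 2.71 CPM for Saa1 (1.48 and 3.93, WT 0.386 and 0.785) and 0.194 CPM for Saa2 (0.318 and 0.0709, WT 0.0552 and 0.0636). The Saa2 values rest on 27 and 5 UMIs in Tubb3-/- mice against 3 and 3 UMIs in WT mice. In cells with no lineage marker, Lrg1 averaged 31.8 CPM in Tubb3-/- mice (39.7 and 23.9, WT 11.6 and 22.3). In the other cases the mice overlapped or were at 0. Lcn2 was 63.8 and 67.6 CPM in WT mice against 61.1 and 74.2 CPM in Tubb3-/- mice in cells with several markers, and 33.4 and 46.7 against 49.4 and 7.51 CPM in cells with none. With no marker, Hp was 70.7 and 94.5 against 131 and 68.2 CPM, Lbp 32.1 and 27.6 against 10.6 and 32.8 CPM, Saa3 14.8 and 37.1 against 13.8 and 334 CPM and Saa1 0 and 0 against 14.8 and 0 CPM, and Saa2 was at 0. None of these differences was tested. Saa3 in these several-marker cells differed less between genotypes than in fibroblasts, where the means were 82.5 and 299 CPM.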

How the results depend on the processing

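With 2 mice a group, the calls rest on few degrees of freedom, and leaving out a mouse leaves 1 sample whose spread is assumed to be that of the others. The estimates for fibroblast Saa3, Lcn2 and Hp and endothelial Lrg1 kept their direction under every alternative run, and these passed the threshold under some. Leaving out each mouse gave 1.33 to 2.68 for Saa3 (adjusted p 0.000458 without WT mouse 1 and 0.00711 without WT mouse 2), 0.93 to 1.49 for Lcn2 (0.00847 and 0.00490), 1.21 to 2.04 for Hp (0.00409 and 0.0231) and 0.62 to 1.82 for Lrg1 (0.00229 without WT mouse 1), and without either Tubb3-/- mouse none passed. DESeq2 gave 1.18 for Lcn2 and 1.56 for Hp, and library size alone gave 1.57 for Hp (adjusted p 0.0473), all past the threshold. Without the filter on low counts Lrg1 was 1.14 (adjusted p 7.60e-20). The replicate numbers of the labels name mice and are not known to pair them (correlation of the deviations of same-numbered mice 0.0722 to 0.295 over lineages). With the replicate number as a block, Saa3 was 1.97 (adjusted p 0.000746), Lcn2 1.19 (0.000740), Hp 1.59 (8.94e-05) and Lrg1 1.21 (0.0276), and the block called 1762 genes in fibroblasts, 283 in mural, 275 in mesothelial, 294 in endothelial and 27 in immune cells. Fibroblast Saa3 was 1.70 in the whole-cell libraries (adjusted p 0.401) and 1.18 with 2 or more marker UMIs (0.311).

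Gene counts moved more than the estimates. DESeq2 called 506 genes in fibroblasts, 157 in mural, 36 in mesothelial, 125 in endothelial, 3 in epithelial and 70 in immune cells, and at an unadjusted p below 0.05 edgeR had 2683, 1602, 797, 1709, 445 and 1162. Library size alone gave 144, 1, 6 and 1 in the first 4. No filter gave 858 in mural, 323 in mesothelial, 868 in endothelial, 164 in epithelial and 277 in immune cells. Whole-cell libraries alone gave 2 in mural, 0 in mesothelial and 1 in endothelial cells, and 2 or more marker UMIs gave 54, 14 and 194. Mesothelial counts were 8 in mural cell-enriched libraries, 34 with doublets kept and 4 at a mitochondrial limit of 10%. Leaving out each mouse gave 0 to 998 in fibroblasts, 4 to 359 in mural, 63 to 344 in mesothelial, 7 to 200 in endothelial, 0 to 29 in epithelial and 0 to 631 in immune cells. For differences from fibroblasts, it gave 0 to 48 genes in mural, 0 to 52 in mesothelial, 0 to 87 in endothelial, 0 to 55 in epithelial and 0 to 170 in immune cells. These counts were 0, 24, 23, 11 and 49 with 2 or more marker UMIs, 0, 1 and 1 for mesothelial, endothelial and immune cells in whole-cell libraries, and 0 for epithelial cells with RLE factors or doublets kept. The cause of these shifts was not tested.

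Some estimates turned, among them endothelial Hp, at -1.18 in the report. Lbp was -0.0029 in fibroblasts without WT mouse 2 and 0.024 in mesothelial cells with 2 or more marker UMIs. With the latter, Hp was 0.15 in endothelial, -0.25 in epithelial and 0.067 in immune cells, and Lcn2 0.027 in immune cells. Without WT mouse 2, Hp was -0.033 in epithelial and 0.21 in immune cells and Lcn2 0.82 in immune cells, and without Tubb3-/- mouse 1, Hp was 0.28 and Lcn2 0.026 in immune cells. Leaving out each mouse gave ranges of -0.0029 to 0.89 for fibroblast Lbp, -0.033 to 1.08 for epithelial Hp, -0.83 to 0.82 for immune Lcn2 and -0.38 to 0.28 for immune Hp. Without the richest cells, endothelial Hp was 2.07 CPM higher in Tubb3-/- mice. Lcn2 in epithelial minus fibroblast cells passed in whole-cell libraries (-3.08, adjusted p 0.0197) and without WT mouse 2 (-1.95, 0.0250), and Lcn2 in immune minus fibroblast cells passed without WT mouse 1 (-1.77, 0.00705). Another scaling moved the median of all genes by under 0.05.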
